A study of Mus musculus with 4 samples.

Results

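Expression of 10 genes known as targets of the nuclear receptor PPAR-alpha in liver was examined. They were the fatty acid hydroxylases Cyp4a10 and Cyp4a14, the acyl-CoA thioesterases Acot1, Acot2, Acot3 and Acot4, the secreted factors Angptl4 and Fgf21, the kinase Pdk4 and the pantetheinase Vnn1. They were taken by gene symbol, from probe sets that the platform's annotation gives to 1 gene only, and the probe sets of a gene were averaged. That left 9 of the 10 genes, on 10 probe sets, among 10923 genes in all. Cyp4a10 had no probe set of its own, and the 1 that it shares with Cyp4a31 is described apart. The genes were chosen with the difference between siOrm and siControl livers already known, so their own values are a description without a test.

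The mice were C57BL6/J males, 6 to 13 weeks old. The siOrm mice had, per the series text, received 1 injection of an siRNA against Orm1, which encodes the acute phase protein orosomucoid, in Invivofectamine 3.0, a lipid reagent that delivers to the liver, and the siControl mice a control siRNA. In both groups 40% of the liver was removed 3 days later, and the regenerating liver was taken 48 hours after that operation. The titles of the siOrm arrays could also name siRNAs against Orm1 and Orm2, but their source names give 1 group. There were 2 siOrm and 2 siControl arrays, and the labels do not tell if each holds the RNA of a single animal, so the spread between arrays may be technical. RNA came from whole liver, in which fewer cells of a type and less RNA per cell cannot be told apart.

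PPAR-alpha is a transcription factor that binds fatty acids and pairs with RXR. In the fasted liver it raises genes for the uptake, activation, hydroxylation and oxidation of fatty acids, and genes of ketone body synthesis. Cyp4a enzymes add a hydroxyl group to the far end of a fatty acid, thioesterases release free fatty acids from coenzyme A, and Fgf21 and Angptl4 carry the fasted state to other tissues.

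Every value is a log2 signal relative to the median of the 4 arrays for that probe set, with base 2 assumed, and a difference is the siOrm mean minus the siControl mean. The centring removes the level of a gene, so levels of different genes cannot be compared and no marker of liver can be shown to be present or absent. It also sets the 2 middle arrays of a probe set at equal distances on either side of 0, as was the case in all 9 members within a tolerance of 0.00001. Orm1 itself, the siRNA target, was at -0.24 and -0.02 in siOrm livers and at 0.02 and 0.19 in siControl livers, a difference of -0.23 (SE 0.15, limma adjusted p = 0.994). The target was thus only slightly lower, and that difference did not pass the test. Its paralogs Orm2 and Orm3 differed by -1.08 and -0.91, also without passing (limma adjusted p = 0.994), and by -0.71 and -0.39 without siControl replicate 2. The arrays were not equally alike: 12 genes lay above 1 in siOrm replicate 1 and 0 in siOrm replicate 2, against 12 in siControl replicate 1 and 137 in siControl replicate 2.

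Of the 9 members, 6 had both siOrm arrays above both siControl arrays, 0 had both below, and 3 overlapped. Over all 10923 genes, 17.0% had both siOrm arrays above and 15.3% had both below, and since the members were chosen on this contrast nothing is read from their count. The median difference of the members was 0.80, against 0.01 over all genes, and it was 0.31 over the 7 members left without the probe sets of Acot3 and Angptl4, which can match several transcripts. Of the members, 5 were higher in siOrm livers by at least 0.5, as were 1.46% of all genes, while Pdk4 was lower, at -0.78. Without siControl replicate 2, the array that stands apart, 7 of the 9 members had both siOrm arrays above the 1 siControl array left, as did 31.6% of all genes, and the members' median was 0.49.

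**Figure D1:**
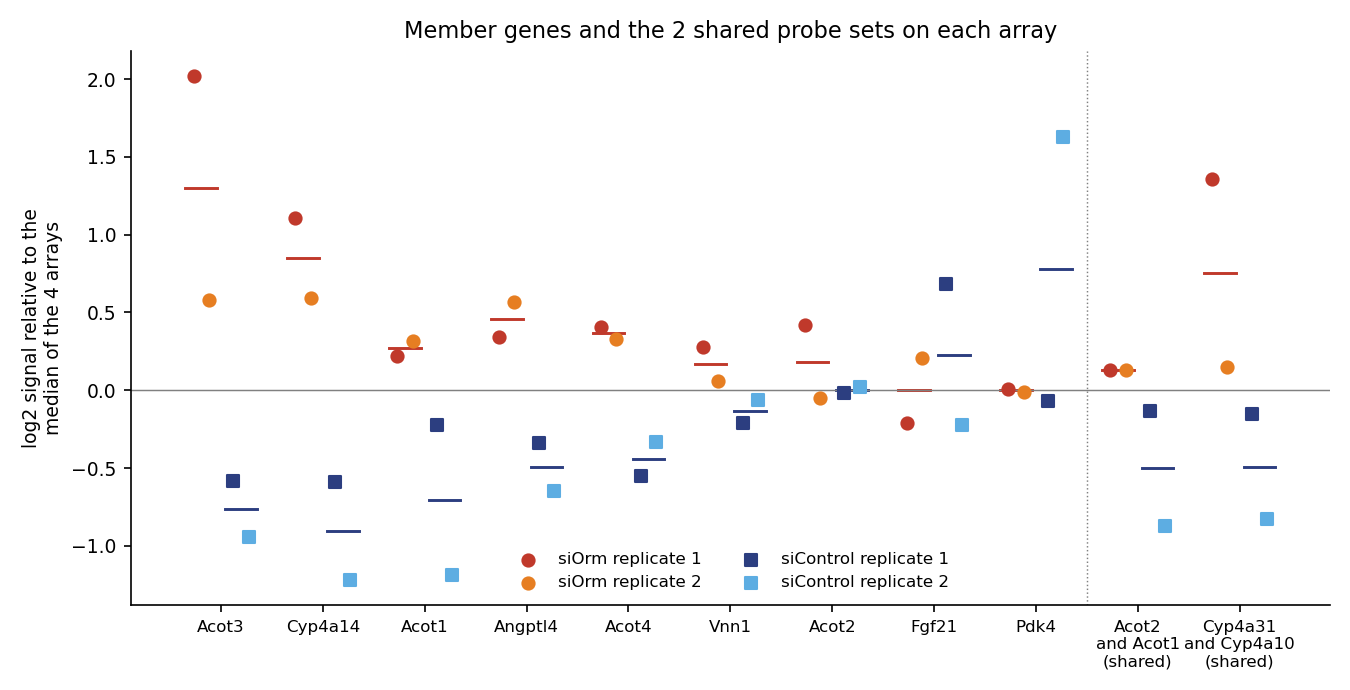
Log2 signal relative to the median of the 4 arrays (vertical axis) for each member and for the 2 probe sets shared between genes, right of the dotted line. Points are single arrays, circles siOrm and squares siControl, and bars are group means. Acot3, Cyp4a14, Acot1, Angptl4, Acot4 and Vnn1 have both circles above both squares, and Pdk4 has 1 square at 1.63 far above its other points.

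Cyp4a14, which hydroxylates the far end of medium and long fatty acids in the endoplasmic reticulum, was measured by probe set 1423257_at and stood at 1.11 and 0.59 in siOrm livers and at -0.59 and -1.22 in siControl livers. Its groups were separated by 1.18, more than the spread within either (SD 0.37 in siOrm and 0.45 in siControl, n = 2 each). The difference was 1.75 (SE 0.27), a 3.37-fold higher signal, and ranked 3 from the top of all genes. It ran from 1.44 to 2.07 when any 1 array was left out.

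Cyp4a10, a neighbouring gene of the same family, was read only through the probe set it shares with Cyp4a31. That probe set, 1424853_s_at, was at 1.36 and 0.15 in siOrm livers and at -0.15 and -0.83 in siControl livers, a difference of 1.25 (2.38-fold). Much of its height lay in siOrm replicate 1, and without that array the difference was 0.65. Cyp4a31 also had a probe set of its own, at 0.54 and 0.05 in siOrm livers against -0.05 and -0.05 in siControl livers, with a difference of 0.34. The shared probe set therefore lay further apart than the one specific to Cyp4a31, and how much of it comes from Cyp4a10 transcripts was not tested.

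The 4 thioesterases are neighbours: in the RefSeq gene table of GRCm38.p6 the order along the chromosome is Acot2, Acot1, Acot4 and Acot3, with no other protein-coding gene between them. Their enzymes work in different places, Acot1 in the cytosol, Acot2 in mitochondria, and Acot3 and Acot4 in peroxisomes. Because 3 of these neighbours were higher in both siOrm arrays and the fourth was not, their promoters are shown. The sequences are the 250 bases before the transcript start in the RefSeq promoter table (GRCm38.p6), written 5′ to 3′ on the gene's strand, and for Acot4 the last 30 of those bases. Capitals mark a match to AGGTCA, a single-receptor motif that is not particular to PPAR, or to TGACCT on the other strand.
Acot2, chr12:83987611-83987860, strand +: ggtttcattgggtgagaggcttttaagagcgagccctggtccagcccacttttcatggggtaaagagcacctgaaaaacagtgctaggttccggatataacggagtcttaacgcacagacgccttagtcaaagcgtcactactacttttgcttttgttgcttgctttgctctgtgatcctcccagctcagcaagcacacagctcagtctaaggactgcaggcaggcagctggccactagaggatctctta
Acot1, chr12:84009252-84009501, strand +: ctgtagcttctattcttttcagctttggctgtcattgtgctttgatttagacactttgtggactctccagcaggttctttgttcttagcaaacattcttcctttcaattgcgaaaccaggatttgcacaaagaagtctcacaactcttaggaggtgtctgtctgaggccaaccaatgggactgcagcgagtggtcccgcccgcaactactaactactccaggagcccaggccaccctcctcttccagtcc
Acot4, chr12:84038349-84038378, strand +: ggctcagccccgaagcaTGACCTttggccg
Acot3, chr12:84051894-84052143, strand +: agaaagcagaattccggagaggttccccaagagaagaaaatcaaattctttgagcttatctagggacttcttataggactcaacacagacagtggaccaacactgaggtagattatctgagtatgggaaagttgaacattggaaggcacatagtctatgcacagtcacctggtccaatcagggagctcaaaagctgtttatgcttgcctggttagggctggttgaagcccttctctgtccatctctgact
Only the Acot4 window held a match, on the other strand, from 13 to 8 bases before the start, where it reads on as TGACCTTT. Across the 32851 promoter windows of that table, 14.0% held AGGTCA on either strand and 1.34% the longer AAAGGTCA, which contains it. A full pair of such sites 1 base apart, AGGTCANAGGTCA, was in 0.0335% of windows and in none of the 7 windows of members, which covered Acot1, Acot2, Acot3 (with 2 starts), Acot4, Fgf21 and Pdk4. Only exact letters were searched, so a pair of sites with changed letters would be missed. These matches describe letters in a short window and not binding.

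Acot3 ranked 2 from the top of all genes by its difference. It stood at 2.02 and 0.58 in siOrm livers and at -0.58 and -0.94 in siControl livers, a difference of 2.06 (SE 0.46, 4.16-fold). The groups lay apart by 1.16, but the siOrm arrays themselves differed widely (SD 1.02), and without siOrm replicate 1 the difference was 1.34. Its 1 probe set, 1422925_s_at, is of a kind that can share sequence with related transcripts.

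Acot4, whose enzyme also acts on succinyl-CoA, was the most even of the thioesterases. Its mean was at 0.41 and 0.33 in siOrm livers and at -0.55 and -0.33 in siControl livers, with a difference of 0.80 (SE 0.14, 1.75-fold). The 2 probe sets of the gene, 1422076_at and 1422077_at, gave 0.86 and 0.75, and in each of them the groups were apart. Leaving out any 1 array moved the difference between 0.69 and 0.92.

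Acot1, on probe set 1449065_at, was at 0.22 and 0.32 in siOrm livers and at -0.22 and -1.19 in siControl livers. The difference of 0.98 (SE 0.32, 1.97-fold) was 0.49 without siControl replicate 2, the lowest array, and 1.46 without siControl replicate 1. Both siOrm arrays were above siControl replicate 1, which already follows from the separation of the groups counted above.

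Acot2, on probe set 1422996_at, differed least of the 4. It stood at 0.42 and -0.05 in siOrm livers and at -0.02 and 0.02 in siControl livers, so the groups overlapped and the difference of 0.18 (SE 0.19) was within the spread of the siOrm arrays (SD 0.33). Without siOrm replicate 1 it was -0.05. The probe set that cannot tell Acot2 from Acot1, 1422997_s_at, read 0.13 and 0.13 in siOrm livers and -0.13 and -0.87 in siControl livers, with the same low siControl replicate 2 as Acot1. Its difference of 0.62 lay between those of the 2 genes.

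Angptl4, a secreted inhibitor of lipoprotein lipase, was higher in both siOrm arrays. It stood at 0.34 and 0.57 in siOrm livers and at -0.34 and -0.65 in siControl livers, with a difference of 0.95 (SE 0.17, 1.94-fold). The spread was small in both groups (SD 0.16 in siOrm and 0.21 in siControl), and the difference stayed between 0.80 and 1.10 with any 1 array left out. Like that of Acot3, its probe set, 1417130_s_at, can share sequence with related transcripts. Fgf21, the fasting hormone that liver releases, showed no such separation. Its values were -0.21 and 0.21 in siOrm livers and 0.68 and -0.22 in siControl livers, and the difference of -0.23 (SE 0.32) changed to 0.22 without siControl replicate 1 and to -0.68 without siControl replicate 2.

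Vnn1, an enzyme on the cell surface that splits pantetheine into pantothenic acid and cysteamine, differed by a smaller amount. It was at 0.28 and 0.06 in siOrm livers and at -0.21 and -0.06 in siControl livers, with a difference of 0.31 (SE 0.15, 1.24-fold). The gap between the groups was 0.12, less than the spread within siOrm (SD 0.16), and the difference was 0.20 without siOrm replicate 1.

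Pdk4, the kinase that switches off pyruvate dehydrogenase when fat is burned, ran the other way on 1 array. It was at 0.01 and -0.01 in siOrm livers and at -0.07 and 1.63 in siControl livers, so 3 arrays were nearly alike and siControl replicate 2 stood far above them. The difference of -0.78 (SE 0.52) became 0.07 without that array and was -1.63 without siControl replicate 1, and after quantile normalization it was -0.39. In siControl replicate 2 Pdk4 ranked 27 from the top of 10923 genes. The same array had the highest mean of the macrophage markers (7 of 7 measured, -0.02 and -0.08 in siOrm, -0.18 and 1.09 in siControl) and of the neutrophil markers (5 of 7 measured, -0.13 and -0.07 in siOrm, 0.09 and 0.95 in siControl). It also had the highest means of stellate cell (0.44), endothelial (0.32) and adipocyte markers (0.32, with 2 of 6 measured). Cholangiocyte markers were highest in siOrm replicate 2 instead, at 0.21. Neutrophil and adipocyte means were lower in both siOrm arrays (adipocyte 0.07 and -0.1 in siOrm, 0.21 and 0.32 in siControl). So were the means of cell cycle markers, at -0.57 and -0.25 in siOrm and 0.26 and 0.94 in siControl. Of the 6 cell cycle markers measured, 5 had both siOrm arrays below and 0 above, against 15.3% and 17.0% of all genes. Neutrophil markers had 2 below and 1 above, macrophage markers 1 and 1, and hepatocyte markers 1 and 3. Cholangiocyte markers had 1 below and 2 above, endothelial markers 1 and 0, and stellate cell and adipocyte markers 0 and 0. Means of 6 of 7 hepatocyte markers lay between -0.06 and 0.01 on all arrays. The part of other cells and of the cell cycle in the members' values was not tested.

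**Figure D2:**
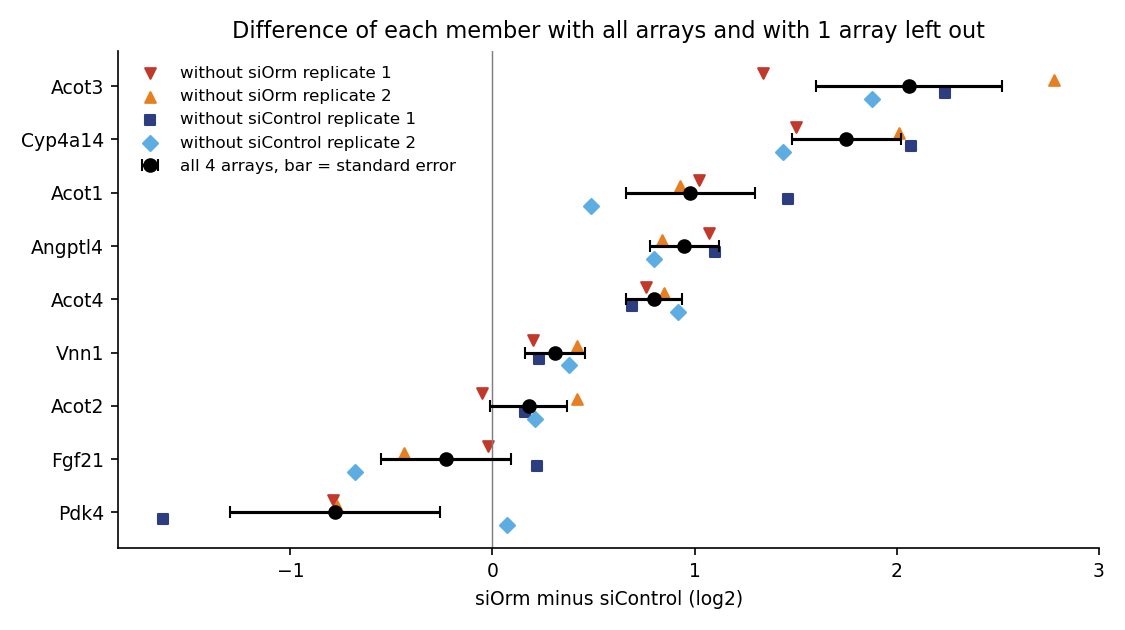
Difference of siOrm minus siControl in log2 units (horizontal axis) for each member, from the highest to the lowest. Black points use all 4 arrays with the standard error as bar, and coloured points leave out 1 array. Acot2, Fgf21 and Pdk4 have points on both sides of 0. The other 6 cannot, because both their siOrm arrays lie above both siControl arrays.

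The members thus did not share 1 pattern across the arrays. Of the 9, 5 were highest in siOrm replicate 1, 2 in siOrm replicate 2, and 1 in each siControl array. Over all genes, 26.4% were highest in siOrm replicate 1 and 18.3% in siOrm replicate 2, against 27.2% in siControl replicate 1 and 28.1% in siControl replicate 2. Of the members 0 were lowest in siOrm replicate 1 and 1 in siOrm replicate 2, against 3 in siControl replicate 1 and 5 in siControl replicate 2. The shares of all genes were 28.4% lowest in siOrm replicate 1 and 12.3% in siOrm replicate 2, against 20.5% in siControl replicate 1 and 38.8% in siControl replicate 2. The members' median profile was 0.34 and 0.32 in siOrm and -0.22 and -0.33 in siControl. The spread within groups was wider than usual in the table: the median SD was 0.16 between siOrm arrays and 0.26 between siControl arrays for members, and 0.09 and 0.14 for all genes.

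The 5 genes that are no member and lay nearest to the members' median profile over the 4 arrays, by root mean squared distance, were Slc22a7 (0.036), Polg2 (0.055), Ppargc1b (0.057), Atoh7 (0.061) and Alas2 (0.065). Slc22a7, an organic anion transporter, was at 0.33 and 0.27 in siOrm livers and at -0.27 and -0.36 in siControl livers. Ppargc1b, a coactivator of nuclear receptors, was at 0.25 and 0.25 in siOrm livers and at -0.25 and -0.34 in siControl livers. This likeness rests on 4 centred values a gene.

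The rest of the pathway was read from 10 lists with 164 other genes, of which 131 were measured. None of these 131 passed the test over all genes in either direction (limma with Benjamini-Hochberg adjustment, smallest adjusted p = 0.857). Among all genes 0, or 0%, passed. At an unadjusted p under 0.05 there were 520, or 4.76%, and a variance prior with a trend called 11, or 0.101%. Of the 131 genes, 65 had both siOrm arrays above both siControl arrays (49.6%, against 17.0% of all genes) and 8 had both below (6.11%, against 15.3%). Their median difference was 0.18, against 0.01 over all genes, and 105 of the 131 differed upwards, against 52.2% of all genes. Without siControl replicate 2, 82 had both siOrm arrays above, against 31.6% of all genes. The lists were written with earlier results of these arrays known, so these shares describe them and do not test them.

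Of 16 receptor and coregulator genes, 4 had both siOrm arrays above (25%, against 17.0% of all genes) and 1 below (6.25%, against 15.3%). With so few genes nothing is read from these counts. Their median was 0.09, with a range from -0.16 for Ppara to 0.55 for Ppargc1b. Ppara was at 0.05 and -0.05 in siOrm livers and at -0.30 and 0.61 in siControl livers, high in siControl replicate 2 like Pdk4, with a difference of -0.16 (SE 0.30) that was 0.30 without that array and -0.61 without siControl replicate 1. Rxra, its partner, differed by 0.15 (SE 0.16), Creb3l3, a liver transcription factor that acts with it, by 0.06 (SE 0.14), and the coactivator Ppargc1a by 0.21 (SE 0.15). Without siControl replicate 2 the values were 0.06 for Rxra, 0.16 for Creb3l3 and 0.12 for Ppargc1a.

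The enzymes of fatty acid oxidation were mostly higher in siOrm livers by value, none past the test. In peroxisomes, 12 of 17 genes had both siOrm arrays above (70.6%, against 17.0% of all genes) and 0 below (against 15.3%). Their median was 0.23, with a range from 0.00 for Crot to 0.51 for Eci2. Acaa1b, a peroxisomal thiolase, was at 0.21 and 0.16 in siOrm livers and at -0.36 and -0.16 in siControl livers, and differed by 0.45 (SE 0.14). Ehhadh, the bifunctional enzyme, differed by 0.13 (SE 0.13). In mitochondria, 13 of 21 genes were above (61.9%, beside the same 17.0% of all genes) and 0 below. Their median was 0.26, with a range from 0.06 for Acadm, a medium-chain dehydrogenase, to 0.46 for Slc25a20, the carnitine carrier. Cpt1a, which admits fatty acids to mitochondria, differed by 0.19 (SE 0.17) with overlapping groups, and by 0.03 without siControl replicate 2. Without that array the mitochondrial median was 0.11, with 18 of the 21 genes above 0, and the peroxisomal median was 0.16.

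Uptake and storage genes were more often higher than lower in siOrm livers by value, none past the test. Of 23, 13 had both siOrm arrays above (56.5%, against 17.0% of all genes) and 2 below (8.7%, against 15.3%). Their median was 0.20, or 0.12 without siControl replicate 2. The fatty acid transporter Cd36 was at 0.30 and -0.02 in siOrm livers and at -1.16 and 0.02 in siControl livers, and its difference of 0.71 (SE 0.39) was 0.12 without siControl replicate 1. Fabp1, the liver fatty acid binding protein, differed by 0.08 (SE 0.13). Plin2, a coat protein of lipid droplets, was among those lower, at -0.38 and -0.02 in siOrm livers against 0.03 and 0.02 in siControl livers, a difference of -0.22 (SE 0.16) that was -0.04 without siOrm replicate 1. The other lower gene was Acsl4, an acyl-CoA synthetase, at -0.71 and -0.20 in siOrm livers against 0.20 and 0.44 in siControl livers, a difference of -0.78. Retsat had the highest difference of the list, 0.79 (SE 0.35). It was at 0.16 and 0.12 in siOrm livers against -0.11 and -1.2 in siControl livers, so most of that difference came from siControl replicate 2. Acsl4 and Retsat were named after their values were seen.

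**Figure D3:**
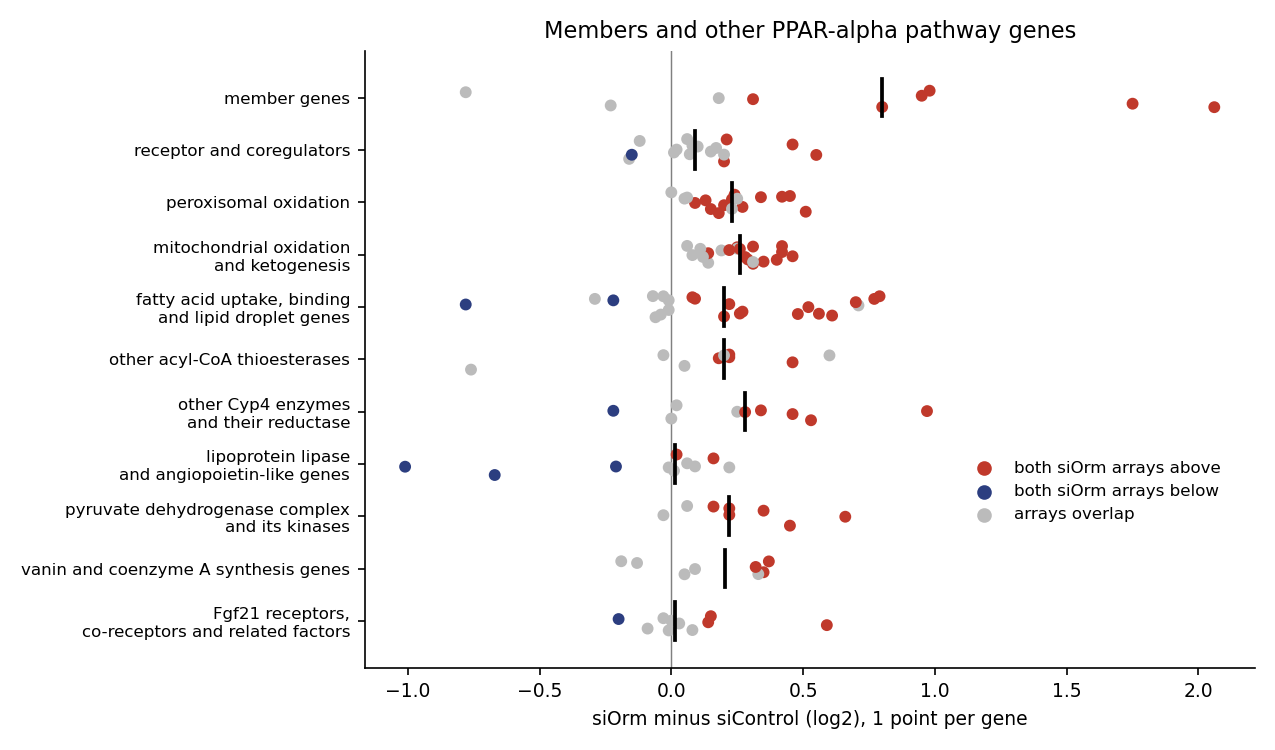
Difference of siOrm minus siControl in log2 units (horizontal axis) for each member and each gene of the 10 lists, 1 point per gene, with a black bar at the median. Red genes have both siOrm arrays above both siControl arrays, blue genes have both below and grey genes overlap. List medians lie between 0.02 and 0.28, and that of the members at 0.80.

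Relatives of each member were set beside it. Among the other thioesterases 4 of 9 had both siOrm arrays above (44.4%, against 17.0% of all genes) and 0 below (against 15.3%). The median was 0.20. Acot12, which acts on acetyl-CoA, differed by 0.46 (SE 0.19; 0.23 with siControl replicate 2 left out) and the peroxisomal Acot8 by 0.22 (SE 0.14; 0.11 with that array left out). Acot9, named after its values were seen, had the lowest difference, -0.76, with overlapping values of -0.93 and 0.18 in siOrm livers and -0.18 and 0.96 in siControl livers. Without siControl replicate 2 the list's median was 0.11. Of the other Cyp4 genes 5 of 9 were above (55.6%) and 1 below (11.1%), with a median of 0.28. Cyp4a12a was at 0.06 and 0.35 in siOrm livers and at -1.49 and -0.06 in siControl livers. Its difference of 0.97 (SE 0.45) was 0.26 without siControl replicate 1, the lowest array. For Cyp4f14 the difference was 0.53 (SE 0.20), and 0.29 with siControl replicate 2 left out.

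Around Pdk4, the pyruvate dehydrogenase list had 6 of 8 genes above (75%, against 17.0% of all genes) and 0 below (against 15.3%). Its median was 0.22. Pdk3, another kinase of the complex named after its values were seen, was at 0.03 and -0.03 in siOrm livers and at -0.07 and 0.13 in siControl livers, and differed by -0.03. Pdk1 was at 0.73 and 0.09 in siOrm livers and at -0.42 and -0.09 in siControl livers, and differed by 0.66 (SE 0.25). Pdk2 was at 0.56 and 0.11 in siOrm livers and at -0.11 and -0.12 in siControl livers, and differed by 0.45 (SE 0.18). Both were highest in siOrm replicate 1, without which Pdk1 differed by 0.34 and Pdk2 by 0.22. Pdha1, the catalytic subunit that these kinases phosphorylate, differed by 0.16 (SE 0.14).

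Lpl, the lipase that Angptl4 inhibits, was at -0.06 and -0.17 in siOrm livers and at 0.06 and 1.06 in siControl livers. It differed by -0.67 (SE 0.33), and by -0.17 without siControl replicate 2, the array on which Pdk4, Ppara and the macrophage markers were also high. Of the 10 genes of the lipase and angiopoietin-like list 2 were above (20%, against 17.0% of all genes) and 3 below (30%, against 15.3%). With so few genes nothing is read from these counts, and the median was 0.02. Angptl8, another secreted regulator of that lipase, had the lowest difference of the list, -1.01, at -0.64 and -0.09 in siOrm livers against 1.21 and 0.09 in siControl livers. It was named here after its values were seen.

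For Vnn1 and Fgf21 the partners were mixed. Vnn3, the gene next to Vnn1, was at 0.22 and -0.22 in siOrm livers and at -0.35 and 0.62 in siControl livers, with overlapping groups and a difference of -0.13 (SE 0.34). Pank1, which starts coenzyme A synthesis from pantothenic acid, was at 0.24 and 0.04 in siOrm livers against -0.24 and -0.22 in siControl livers, and differed by 0.37 (SE 0.14). Of 8 vanin and coenzyme A genes 3 were above (37.5%, against 17.0% of all genes) and 0 below (against 15.3%). Klb, the co-receptor of Fgf21, differed by 0.59 (SE 0.30), though by 0.13 without the low siControl replicate 2, and Fgfr4 by 0.03 (SE 0.17). Of 10 genes on the Fgf21 receptor list 3 were above (30%) and 1 below (10%), with a median of 0.02. With so few genes nothing is read from these counts.

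**Figure D4:**
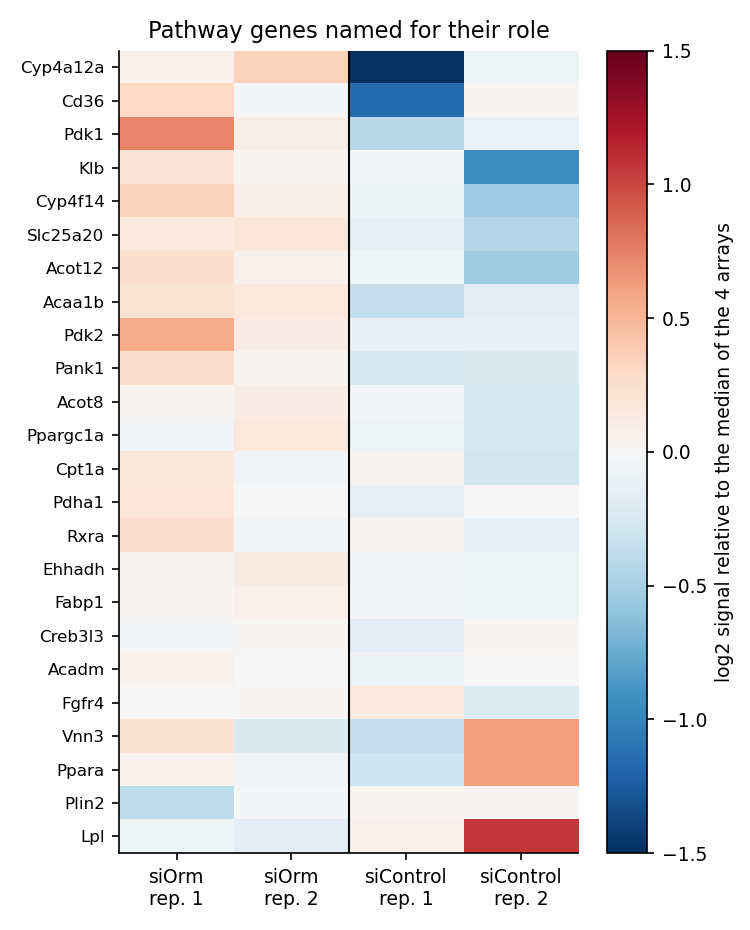
Log2 signal relative to the median of the 4 arrays (colour) for the 24 measured pathway genes chosen for their role, with siOrm arrays left of the line and siControl arrays right, ordered by their difference. Of the 24, 14 have both siOrm arrays above and 2 below both siControl arrays, against 17.0% and 15.3% of all genes. Lpl, Ppara and Vnn3 are highest in siControl replicate 2, as is Creb3l3 by a small margin (0.03, against 0.02 in siOrm replicate 2).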

How the data were processed

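RNA was measured on 4 arrays, 2 siOrm and 2 siControl, named as Affymetrix Mouse Genome 430A arrays by the series text, while the labels' protocols name another maker's labelling and an extraction from cultured cells. The authors deposited log2 signals of 18852 probe sets, centred on the median of the 4 arrays (largest row median 4.8e-07, from the values). The base is assumed, and natural logarithms would make each difference 1.44 times larger. How arrays were normalized, with which software, and how probe sets were filtered is not given in the sources used here, and no background or saturation can be seen, so the number of arrays limits the precision.

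Probe sets with 1 symbol in the platform annotation (17209, against 564 with several, 1044 not listed and 35 controls) were averaged to 10923 genes, of which 10907 were found by gene number in the RefSeq table and 0 symbols were updated. Differences, standard errors and two-sided p-values came from lmFit and eBayes of limma 3.58.1, run in R 4.3.3 with a constant prior (3.6 degrees of freedom, and 2 residual ones), and were adjusted over all genes by Benjamini-Hochberg, with calls at 0.05. The fit was run on simulated data with 200 changed genes of 10923. With variances drawn from the fitted prior, a model added after the first simulation was seen, 3.52% of its calls were false. That model is the one the fit itself assumes. With the fitted variances themselves 8.29% were false, above the 0.05 used for calls. Both simulations gave every array the same independent noise, unlike these arrays, so they do not show the share of false calls here. The members and lists were chosen with earlier results of these data known. Genes named beside the members were Orm1, Orm2 and Orm3, 28 pathway genes taken for their role, of which 24 were measured, and the 5 nearest profiles. Alternatives were another normalization, centring, probe set summary, log base or prior, arrays left out and a replicate block.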

Additional observations from a re-analysis of the deposited data

How the results depend on the processing

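With single arrays left out, Acot2, Fgf21 and Pdk4 did not keep one sign, while for the other 6 members a positive sign is fixed by their separated groups. With 1 array left out, 6 to 8 of the 9 members had a difference above 0, 6 to 7 had every siOrm array left above every siControl array left, and the members' median lay between 0.49 and 0.84. That median was 0.92 after quantile normalization and 1.16 with natural logarithms. It was 0.31 without the probe sets marked as able to match several transcripts, a setting that drops Acot3 and Angptl4 and leaves 7 members. The median of the other PPAR-alpha genes lay between 0.12 and 0.21 with 1 array left out, and 0 to 4 of them passed the test. The 4 that passed did so without siControl replicate 1, when the only siControl array left was replicate 2. They were Klb, Lpl, Retsat and Them4. The whole table had between 0 and 229 calls in these settings, and 11 with a trend prior. With the replicate number as a block, 0 genes passed, 6 members were higher in both same-numbered pairs and the median was 0.80. The pairs deviated together only weakly (correlation 0.132 over 10923 genes), and the labels give the number no meaning beyond a count. The cause of these shifts was not tested. With 2 arrays a group and no signal level, small differences such as that of Vnn1 cannot be told from the spread between arrays.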
